A study of Mus musculus with 8 samples.

Results

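DNA replication origin and fork genes were examined by RNA-seq in cells of a mouse kidney line, all treated with TGF-β, in 8 libraries. The 48 genes were taken by symbol from a table of 22274 genes. All 48 have 1 row each, and all 48 passed the filter on low counts that left 13702 genes for testing. The line is labelled RFB and given as kidney fibroblasts, a cell type that produces matrix and turns into myofibroblasts under TGF-β. The control group, labelled ad-GFP, and the group labelled ad-CRE have 4 libraries each; the names stand for adenoviruses carrying a fluorescent protein or the recombinase that joins DNA at loxP sites. The series describes its derived cells as carrying a knockdown of Suv39h1, a histone H3 lysine methyltransferase gene. The labels describe neither the floxed allele, if any, nor the time after infection. Nothing says that replicates came from separate cultures, and the p-values therefore cover only variation among these libraries, possibly technical. The members, by role, are the 6 subunits of the origin recognition complex (Orc1 to Orc6), the MCM loading factors Cdc6 and Cdt1 with the inhibitor Gmnn, the 6 helicase subunits Mcm2 to Mcm7, Mcm8, 8 helicase activation genes, 4 genes of polymerase alpha-primase, 5 of polymerases delta and epsilon, 6 of the clamp and its loader, 3 of the single-strand binding protein RPA, 3 of Okazaki fragment processing and 3 of fork protection.

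DNA replication starts at origins bound by the origin recognition complex. In G1 phase this complex, with CDC6 and CDT1, loads MCM helicase rings onto DNA, a step called licensing, and geminin blocks CDT1 once S phase has begun. At the start of S phase the kinase CDC7 with its activator DBF4, together with cyclin-dependent kinase, turns loaded MCM rings into active helicases by adding CDC45 and the GINS complex. Polymerase alpha-primase then lays primers, the sliding clamp PCNA is loaded by RFC, polymerases epsilon and delta extend the strands, and FEN1, DNA2 and ligase I join the lagging strand. Transcription of many of these genes is known to rise at the G1 to S transition under E2F factors. Kidney tubule cells and fibroblasts are mostly out of cycle in the healthy organ and enter it after injury or in culture.

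Because these genes moved together, the promoters of a few were set side by side. RefSeq promoter windows (build GRCm38.p6, 250 bases before to 50 after an annotated start) were found for 39 of the 48 members, with 48 windows in all. Each line shows the 160 bases that end just before the start, 5′ to 3′ along the gene, and capitals mark E2F consensus letters (TTTCCCGC, TTTCGCGC, TTTGCCGC or TTTGGCGC on either strand; adjoining matches run together). Mcm6 had the largest fall of the members, Orc1 the largest among the origin recognition genes and Pola1 the largest of its complex. Orc3 did not pass the test although its window holds the letters. Mcm10 and Dna2 had the next largest falls after Mcm6 (−1.60 each), and neither has a full match in its window. The Mcm10 window ends, beyond the bases shown, in the letters TTTGGCG. A match cut off by the edge of that window cannot be told from none.
Mcm6 (chr1:128359706-128359865, minus strand): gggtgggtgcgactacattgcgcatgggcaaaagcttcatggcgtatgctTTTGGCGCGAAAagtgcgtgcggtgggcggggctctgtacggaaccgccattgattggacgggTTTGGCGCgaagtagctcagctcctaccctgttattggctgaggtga
Orc1 (chr4:108579294-108579453, plus strand): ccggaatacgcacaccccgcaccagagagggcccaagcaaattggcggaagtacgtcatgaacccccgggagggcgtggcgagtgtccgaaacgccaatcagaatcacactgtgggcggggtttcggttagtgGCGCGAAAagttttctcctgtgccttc
Pola1 (chrX:93632156-93632315, minus strand): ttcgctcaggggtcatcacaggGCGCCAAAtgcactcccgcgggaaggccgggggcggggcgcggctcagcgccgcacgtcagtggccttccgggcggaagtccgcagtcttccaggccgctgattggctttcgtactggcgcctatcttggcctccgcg
Orc3 (chr4:34614943-34615102, minus strand): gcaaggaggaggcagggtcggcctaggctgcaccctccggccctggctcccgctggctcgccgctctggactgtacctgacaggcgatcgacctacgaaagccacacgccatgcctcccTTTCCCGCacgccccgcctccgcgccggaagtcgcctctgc
Mcm10 (chr2:5012792-5012951, minus strand): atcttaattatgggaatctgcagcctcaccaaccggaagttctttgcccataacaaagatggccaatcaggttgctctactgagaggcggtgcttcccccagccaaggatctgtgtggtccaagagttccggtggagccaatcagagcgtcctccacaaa

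The E2F letters were present in 17 of the 48 member windows (35.4%). The share was 2.26% among all 32851 RefSeq promoter windows and 3.70% among the 13851 windows of genes tested here. The 23 matches came from 17 genes, and 16 of the 23 began within 100 bases of the annotated start. In the Mcm6 window they began 110, 106 and 47 bases before the start. The 17 members with a match had a median log2 fold change of −1.18 and a range of −1.83 to −0.02. The 22 members with a window but no match had a median of −0.82 and a range of −1.60 to 0.16, and the ranges overlapped. Matches are a description of these letters and not of binding. The letters TTTGAA on either strand, the cell cycle homology element of many mitotic promoters, were in 16.7% of member windows. The share was 17.9% among all RefSeq windows and 12.1% among windows of genes tested. The CCAAT box on either strand was in 52.1% of member windows, against 37.4% in both backgrounds.

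Total counts ran from 15998257 to 22297598 per library, and the ranges of the groups overlapped. Suv39h1, the gene described as knocked down, was at 37.2 to 44.1 CPM (reads scaled to a common library size) in ad-GFP and at 31.6 to 33.4 CPM in ad-CRE, a level of 78.5% (log2 fold change −0.35, SE 0.053, edgeR adjusted p = 8.65e-07). Smarca4, which encodes the chromatin remodeller BRG1, fell far more, to 11.9% (−3.07, SE 0.044, edgeR adjusted p = 3.82e-31). The groups are therefore called by their labels and not by a gene. Of the 12 fibroblast markers 10 were tested, with mean FPKM of 0.62 to 859.5 in ad-GFP and 0.205 to 579.4 in ad-CRE. Lum and Fap did not pass the filter on low counts. Lum had 0 counts in ad-GFP and 1 in ad-CRE, and Fap had 31 and 15. The summed level of the 12 fibroblast markers was 3492 to 3605 CPM in ad-GFP and 1870.4 to 1990.3 CPM in ad-CRE, where 9 of the 10 tested fell and 1 rose. The sum over 10 tubular epithelial markers was 2346 to 2593 CPM in ad-GFP and 5082 to 5252 CPM in ad-CRE, where 7 rose and 2 fell, so epithelial transcripts were abundant in every library of this line given as fibroblasts. All 6 endothelial markers fell, with sums of 134 to 147 and 61.1 to 69.2 CPM, and 4 of 6 leukocyte markers fell, with sums of 124 to 149.8 and 87.3 to 92.6 CPM, Cd3e having no read. These marker counts stand beside 36.3% lower and 36.8% higher over all genes tested (edgeR adjusted p under 0.05). The part of these markers in the changes below was not tested. In bulk RNA, fewer cells in S phase and less RNA per cell cannot be told apart.

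Of the 48 replication genes, 44 were lower in ad-CRE, 1 was higher and 3 did not pass (edgeR quasi-likelihood test, Benjamini-Hochberg adjusted over all genes, threshold 0.05). Over all genes tested 36.3% were lower and 36.8% higher. The median log2 fold change of the 48 was −0.79, against 0.00 over all genes tested. In 42 of the 48 every ad-CRE library lay below every ad-GFP library, which held for 32.8% of genes tested. In 19 members the level was lower by at least 1 log2 unit, against 9.43% of genes tested, in 13 by 0.5 to 1 and in 12 by less than 0.5. Their summed level was 2329 to 2407 CPM in the ad-GFP libraries and 1289 to 1334 CPM in the ad-CRE libraries, 55.4% of the ad-GFP mean. The plot of fold changes by role shows that the falls were uneven within most complexes.

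**Figure D1:**
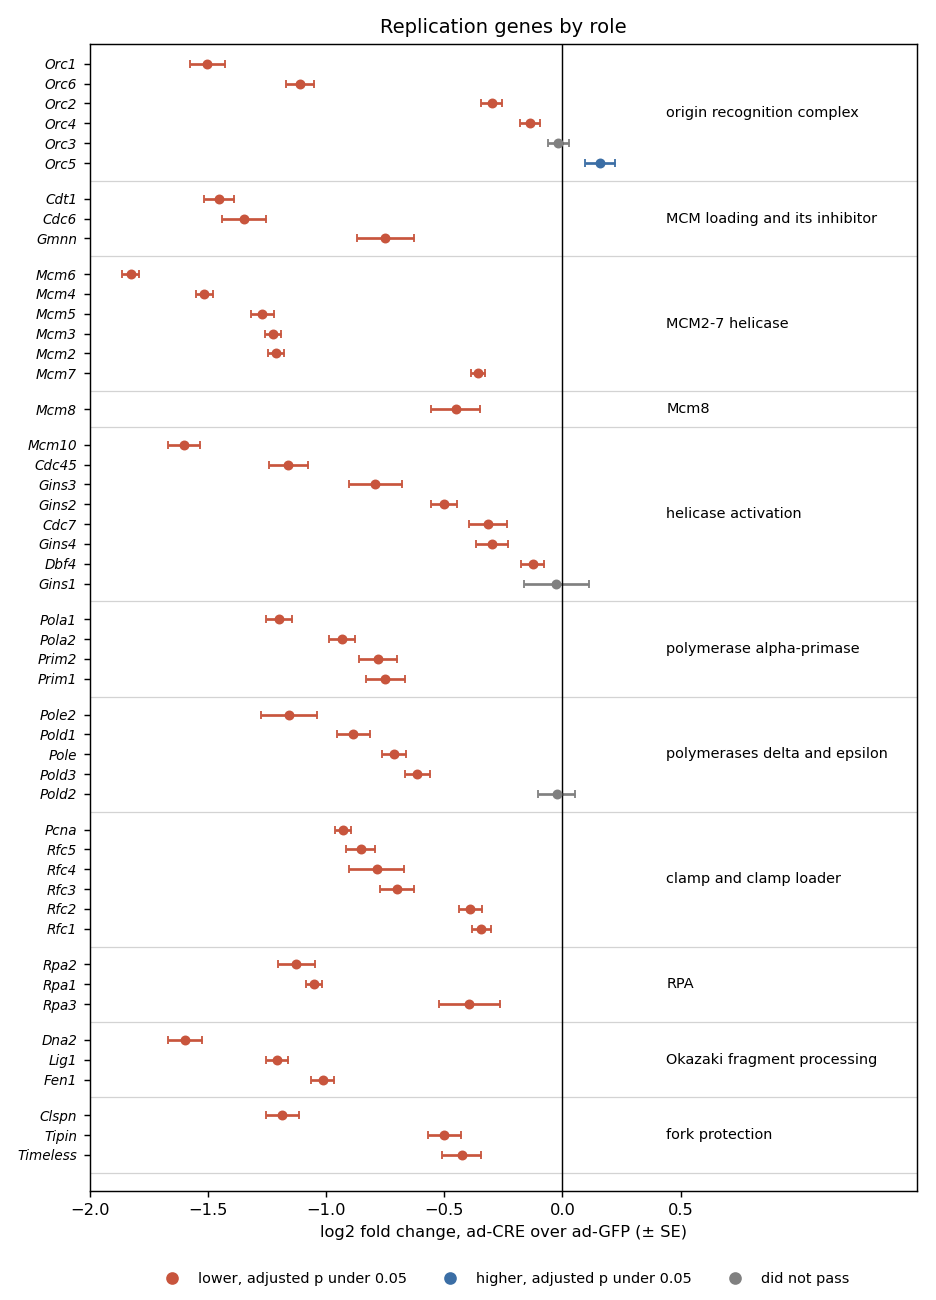
Log2 fold change of each of the 48 replication genes, ad-CRE over ad-GFP, with its SE from the edgeR fit (4 libraries a group), ordered within 11 role groups. Mcm6 lies furthest to the left at −1.83, while Orc3, Gins1 and Pold2 lie at 0 within their SE and Orc5 alone lies to the right among genes that passed.

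The origin recognition complex held the widest spread. Orc1, the cell cycle regulated ATPase subunit of the complex, was at 24.2, 22.6, 22.5 and 25.03 CPM in ad-GFP replicates 1 to 4 and at 8.64, 7.28, 8.33 and 9.04 CPM in ad-CRE replicates 1 to 4. The groups were far apart, with 35.3% of the ad-GFP level left (log2 fold change −1.50, SE 0.075, edgeR adjusted p = 2.1e-17). Orc6, the smallest subunit, fell with it to 46.3% (−1.11, SE 0.060). Orc2, a core subunit and the most abundant member of the complex per length, was at 79.4, 82.9, 93.5 and 80.9 CPM in ad-GFP and 68.2, 70.8, 65.7 and 68.6 CPM in ad-CRE. All ad-CRE values of Orc2 were lower, though by much less than those of Orc1 (−0.30, SE 0.044, edgeR adjusted p = 4.67e-07). Orc4 had −0.14 (edgeR adjusted p = 0.00387) with overlapping groups, and did not pass on the FPKM scales (−0.05, limma adjusted p = 0.566 with a pseudocount of 1).

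Orc3 and Orc5, the remaining core subunits, did not share the fall. Orc3 was at 45.2, 45.2, 45.6 and 47.8 CPM in ad-GFP and at 45.4, 46.5, 44.1 and 45.5 CPM in ad-CRE. The groups overlapped and the log2 fold change was −0.02 (SE 0.044, edgeR adjusted p = 0.737). Orc5 was at 16.6, 17.86, 16.3 and 15.7 CPM in ad-GFP and at 17.87, 18.7, 19.4 and 18.4 CPM in ad-CRE. The lowest ad-CRE value lay less than 0.1 CPM above the highest ad-GFP value, and Orc5 was higher in ad-CRE by 0.16 (SE 0.065, edgeR adjusted p = 0.0296). That call of Orc5 was lost with DESeq2 (0.16, adjusted p = 0.0866), with scaling by total counts (0.13, edgeR adjusted p = 0.0710), and in edgeR fits that left out ad-GFP replicate 3 or 4, or ad-CRE replicate 2 or 3 (adjusted p of 0.0515 to 0.0878).

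**Figure D2:**
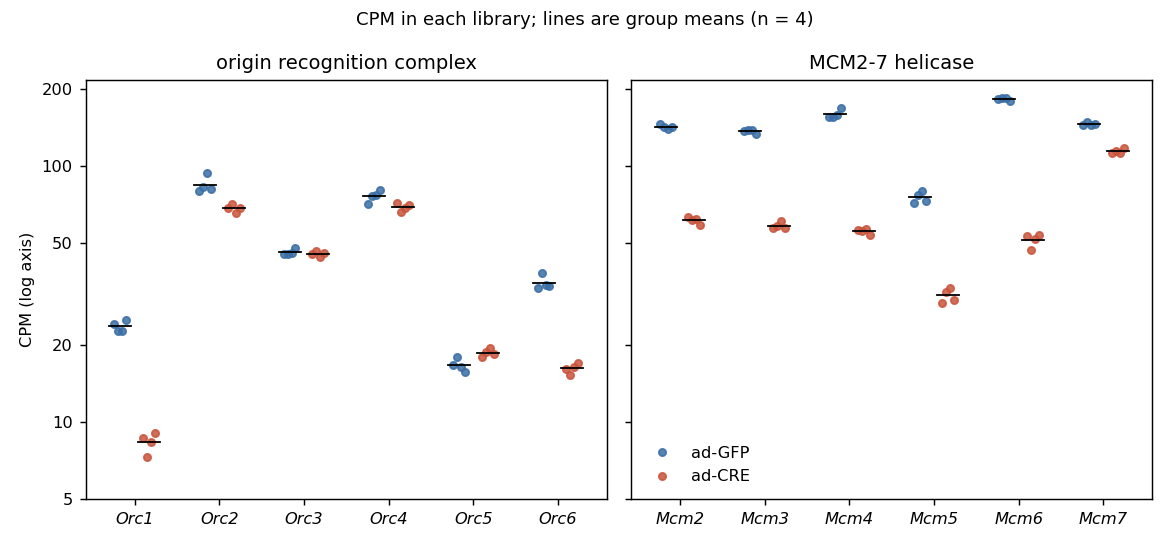
CPM of each origin recognition and MCM helicase gene in each library on a log axis, with points for the 4 libraries of a group and lines for group means. Orc1 and Orc6 separate widely while Orc3 overlaps, and 5 of the 6 MCM genes drop below 64 CPM in ad-CRE while Mcm7 stays at 112 CPM or more.

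The loading factors were among the most reduced. Cdt1, which brings MCM rings to the origin recognition complex, was at 32.7, 32.0, 32.9 and 30.9 CPM in ad-GFP and at 12.3, 12.4, 11.7 and 10.4 CPM in ad-CRE. No library of one group came near the other, and the level fell to 36.5% (−1.45, SE 0.063, edgeR adjusted p = 5.44e-19). Cdc6, the ATPase that acts with CDT1, fell from 17.1 ± 1.19 to 6.66 ± 0.887 CPM (SD, n = 4; −1.35). Gmnn, which encodes geminin, the inhibitor of CDT1, fell less, from 8.72 ± 0.8 to 5.21 ± 0.977 CPM (SD, n = 4; −0.75, SE 0.120). The ratio of Cdt1 to Gmnn reads was 3.90, 3.71, 3.34 and 3.86 in ad-GFP and 2.54, 2.91, 2.25 and 1.59 in ad-CRE. This ratio was lower in every ad-CRE library, by 0.70 on the log2 scale. This ratio and the 2 others given below were chosen after the values were seen, and are descriptions with no test.

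All 6 genes of the MCM helicase, the ring that unwinds DNA at the fork, were lower. Mcm6 was at 183, 184, 183 and 179 CPM in ad-GFP and at 53.3, 46.9, 51.7 and 53.7 CPM in ad-CRE, which left 28.2% (−1.83, SE 0.037, edgeR adjusted p = 1.8e-27). It was the most abundant MCM gene by CPM in ad-GFP and fell below Mcm2, Mcm3, Mcm4 and Mcm7 in ad-CRE means. Mcm4 followed at −1.52, and Mcm5, Mcm3 and Mcm2 lay close together at −1.27, −1.22 and −1.21, with SE of 0.048, 0.035 and 0.034. Mcm7 was at 144, 149, 145 and 145 CPM in ad-GFP and at 112, 114, 112 and 118 CPM in ad-CRE. Its groups did not overlap either, but 78.1% was left (−0.36, SE 0.031, edgeR adjusted p = 1.08e-11). The 6 products form the ring in equal number, yet the ratio of Mcm7 to Mcm6 reads went from 0.787, 0.806, 0.790 and 0.812 in ad-GFP to 2.10, 2.44, 2.16 and 2.19 in ad-CRE. The mean difference of this ratio, which pairs the smallest and the largest fall of the ring, was 1.47 on the log2 scale. Mcm7 shares 321 exonic bases with Ap4m1 and 64 with Cops6 on the opposite strand, at 22.1 ± 1.63 and 67.4 ± 1.24 CPM in ad-GFP and 24.0 ± 0.821 and 70.7 ± 3.37 CPM in ad-CRE (SD, n = 4). Their part in the Mcm7 value was not tested. Mcm8, an MCM relative that works in recombination and not in the ring, was at 8.57, 10.9, 8.76 and 10.4 CPM in ad-GFP and at 7.10, 6.504, 7.31 and 7.26 CPM in ad-CRE. All ad-CRE values were lower (−0.45, SE 0.103, edgeR adjusted p = 0.000246).

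Helicase activation genes ranged from strongly reduced to nearly unchanged. Mcm10, which joins the active helicase and is needed for its start, was at 29.8, 28.1, 32.9 and 30.5 CPM in ad-GFP and at 10.04, 9.73, 10.4 and 9.67 CPM in ad-CRE. It was left at 32.9% with wide separation (−1.60, SE 0.067, edgeR adjusted p = 1.99e-19). Cdc45, the helicase cofactor, fell to 44.8% (−1.16, SE 0.081). The GINS subunits were unequal, with −0.79 for Gins3, −0.50 for Gins2 and −0.30 for Gins4. Gins1 was at 4.59, 4.34, 3.80 and 5.16 CPM in ad-GFP and at 4.43, 4.21, 3.79 and 5.18 CPM in ad-CRE. Its groups overlapped throughout (−0.03, SE 0.138, edgeR adjusted p = 0.87), and its level was low, with 331 reads in all ad-GFP and 351 in all ad-CRE libraries. Of the kinase that fires origins, Cdc7 fell to 80.4% (−0.32, SE 0.082). Its activator Dbf4 was at 50.6, 48.3, 54.8 and 53.0 CPM in ad-GFP and at 47.0, 44.9, 46.8 and 50.7 CPM in ad-CRE. The groups of Dbf4 overlapped, and the small difference (−0.13, SE 0.048, edgeR adjusted p = 0.0191) was not called when ad-GFP replicate 3 or 4, or ad-CRE replicate 2, was left out (edgeR adjusted p of 0.0549 to 0.0850).

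Every gene of polymerase alpha-primase, which starts each new strand, was lower. Pola1, the catalytic subunit, was at 60.4, 62.8, 69.0 and 65.7 CPM in ad-GFP and at 25.9, 26.3, 29.5 and 30.6 CPM in ad-CRE. The groups were far apart and 43.6% was left (−1.20, SE 0.054, edgeR adjusted p = 1.43e-18). Pola2, its accessory subunit and the most abundant of the 4 per length, was at 44.2, 40.9, 45.02 and 39.8 CPM in ad-GFP and at 21.4, 21.6, 22.8 and 23.4 CPM in ad-CRE. All ad-CRE values of Pola2 were lower (−0.93, SE 0.054, edgeR adjusted p = 8.25e-16), as were those of the primase subunits Prim2 (−0.78) and Prim1 (−0.75).

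Of the 5 members in the elongating polymerases 4 were lower. Pold4, Pole3 and Pole4 are counted with the other origin and fork factors below. Pole2, a subunit of polymerase epsilon, was at 8.61, 8.22, 9.69 and 7.64 CPM in ad-GFP and at 3.80, 3.54, 4.26 and 3.69 CPM in ad-CRE. It had the largest fall of the 5, to 44.9% (−1.16, SE 0.118, edgeR adjusted p = 4.46e-10). The catalytic subunit genes Pold1 and Pole had −0.88 and −0.71. Pold3, which holds polymerase delta to the clamp, was at 36.3, 34.95, 36.4 and 36.2 CPM in ad-GFP and at 22.7, 23.7, 22.6 and 25.2 CPM in ad-CRE. The tight groups lay apart (−0.61, SE 0.052, edgeR adjusted p = 7.66e-12). Pold2, the subunit that links the others, was at 12.9, 13.0, 12.2 and 11.9 CPM in ad-GFP and at 12.2, 13.0, 12.8 and 11.2 CPM in ad-CRE. Its groups overlapped (−0.02, SE 0.079, edgeR adjusted p = 0.791), unlike those of the 4 other members in these polymerases.

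The clamp gene fell more than the largest subunit of its loader. Pcna, whose product rings DNA and tethers polymerases, was at 143, 155, 149 and 154 CPM in ad-GFP and at 77.7, 78.7, 78.1 and 81.4 CPM in ad-CRE. It was left at 52.6% (−0.93, SE 0.034, edgeR adjusted p = 1.07e-20), and GENCODE lists 2 pseudogenes named after Pcna with which reads could be shared. Pseudogenes under other names were not looked for, for Pcna or for any other member. The loader genes ran from −0.85 for Rfc5 through −0.79 for Rfc4, −0.70 for Rfc3 and −0.39 for Rfc2 to −0.34 for Rfc1, the large subunit, and the groups did not overlap in any of them. The ratio of Pcna to Rfc1 reads was 1.61 to 1.72 in ad-GFP and 1.05 to 1.15 in ad-CRE, lower in all 4 ad-CRE libraries by 0.58 on the log2 scale.

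RPA coats single strands at the fork. Its large subunit gene Rpa1 was at 137, 137, 143 and 136 CPM in ad-GFP and at 65.5, 64.7, 68.1 and 68.9 CPM in ad-CRE, and 48.3% was left (−1.05, SE 0.034, edgeR adjusted p = 3.92e-22). Rpa2 was at 19.0, 19.5, 18.6 and 18.6 CPM in ad-GFP and at 8.42, 7.75, 9.72 and 8.81 CPM in ad-CRE. The fall of Rpa2 was close to that of Rpa1 (−1.13, SE 0.078, edgeR adjusted p = 6.18e-14), whereas Rpa3, the small subunit, had −0.39 (SE 0.129, edgeR adjusted p = 0.00732) from a low level of 5.91 ± 0.854 CPM (SD, n = 4).

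All 3 genes of Okazaki fragment processing fell by more than 1 log2 unit. Dna2, a nuclease and helicase that trims long flaps, was at 24.9, 25.5, 23.3 and 24.0 CPM in ad-GFP and at 7.46, 8.74, 8.42 and 7.72 CPM in ad-CRE. It was left at 33.0% (−1.60, SE 0.072, edgeR adjusted p = 1.74e-18). Lig1, the ligase that seals the fragments, was at 69.5, 71.6, 74.7 and 70.5 CPM in ad-GFP and at 29.9, 29.6, 33.9 and 30.5 CPM in ad-CRE. The groups lay far apart (−1.21, SE 0.047, edgeR adjusted p = 4.23e-20), and the flap nuclease gene Fen1 had −1.01. Of the fork protection genes, Clspn, which encodes the checkpoint mediator claspin, was at 26.7, 26.1, 30.5 and 28.6 CPM in ad-GFP and at 11.4, 11.8, 13.8 and 11.98 CPM in ad-CRE. It fell to 44.0% (−1.18, SE 0.070, edgeR adjusted p = 1.19e-15). Tipin, the partner of TIMELESS, was at 23.0, 20.4, 22.3 and 22.1 CPM in ad-GFP and at 14.8, 18.003, 14.0 and 15.4 CPM in ad-CRE. Its groups did not overlap (−0.50, SE 0.071, edgeR adjusted p = 3.1e-07), and Timeless fell by a like amount, with −0.43. Tipin was the only member whose ratio of mean deposited FPKM differed from the count fold change by over 0.2 (−0.77 against −0.50).

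The role groups can be set in order by their medians, as a description with no test. The MCM loading genes (−1.35), the helicase (−1.25), Okazaki fragment processing (−1.21) and RPA (−1.05) had medians below −1. Polymerase alpha-primase (−0.86), the clamp and its loader (−0.74), polymerases delta and epsilon (−0.71) and fork protection (−0.50) followed, and helicase activation (−0.41) and the origin recognition complex (−0.22) had the smallest. Each of these last groups contained genes reduced by more than 1 log2 unit beside genes near 0.

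Levels between genes were compared per length, with the deposited FPKM. In ad-GFP Pcna was highest at 99.8 ± 3.89 FPKM, followed by Mcm7 at 82.7 ± 1.67 and Mcm6 at 62.8 ± 0.860 (SD, n = 4), each apart from the next beyond its spread. The next 5, Mcm3, Mcm4, Rpa1, Orc2 and Mcm2, lay between 42.6 and 45.4 FPKM, and each lay within the spread of the next in that order, although Mcm3 (45.4 ± 0.788) and Mcm2 (42.6 ± 0.801) were apart. The lowest means were those of Mcm8 at 3.05 ± 0.372 and Gins3 at 3.67 ± 0.365 FPKM, which did not differ beyond their spread. In ad-CRE Mcm7 was highest at 64.1 ± 1.22 FPKM, Pcna came next at 51.5 ± 1.04, and Orc2 and Orc4 followed at 30.6 ± 3.08 and 30.4 ± 3.86, within each other's spread. Mcm6 went from rank 3 to rank 10 of the 48. Dna2 had the lowest mean at 1.95 ± 0.137 FPKM, within the spread of Cdc6 at 2.08 ± 0.196 FPKM (SD, n = 4). Among the MCM helicase genes the FPKM level spanned 27.3 to 82.7 in ad-GFP and 11.1 to 64.1 in ad-CRE.

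**Figure D3:**
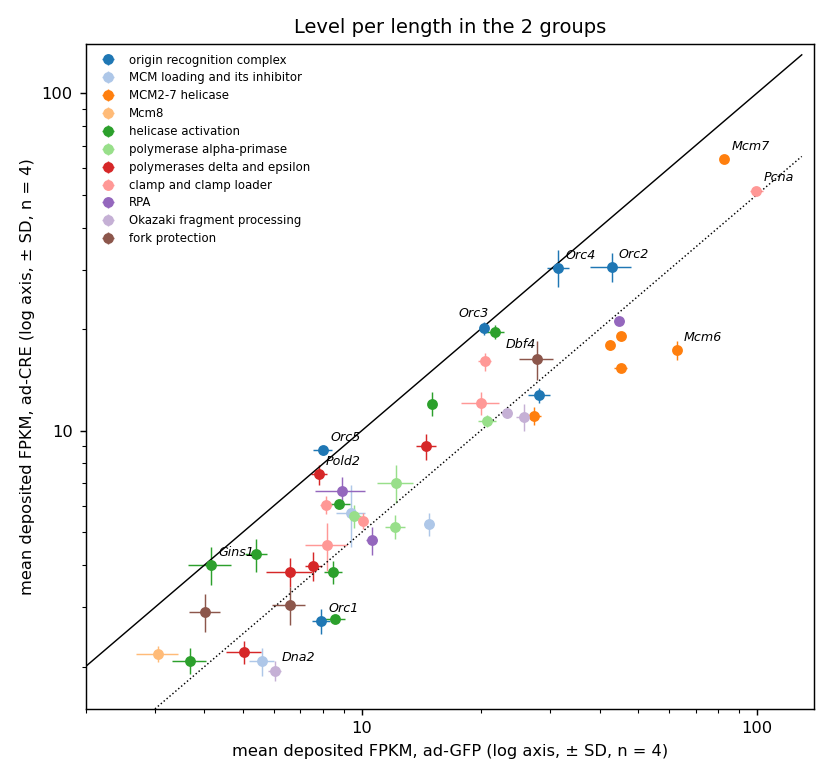
Mean deposited FPKM of each replication gene in ad-GFP (x axis) and ad-CRE (y axis) on log axes, with SD over 4 libraries and colours for role groups. The solid line marks equal levels and the dotted line a level lower by 1 log2 unit; Mcm7, Orc4, Orc3, Orc5, Pold2 and Gins1 lie nearer the solid line, and Mcm6 and Dna2 below the dotted one.

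The neighbours of the members on the chromosome were set beside them as a description, with no test of the pairs, since they were singled out after values were seen. In GENCODE M21 (GRCm38), 14 of the 48 members have a protein-coding neighbour on the opposite strand whose annotated start lies within 1000 bases of theirs, 15 pairs in all. Of the 15 neighbours 5 were lower, 3 were higher and 7 did not pass (median log2 fold change −0.01), while 12 of these 14 members were lower (median −0.58). Over all genes tested 36.3% were lower and 36.8% higher, so the count of lower neighbours does not set them apart from other genes. In 10 pairs the ratio of the member to its neighbour was lower in every ad-CRE than in every ad-GFP library; 13 of the 15 pairs hold a member that had itself fallen, so this count largely restates the members' own falls. Mcm4 on chromosome 16 (15623897 to 15637400, minus strand) starts 466 bases from Prkdc, the gene of a DNA repair kinase. Prkdc was at 46.25, 48.8, 51.7 and 49.8 CPM in ad-GFP and at 38.3, 39.9, 40.8 and 44.5 CPM in ad-CRE. It fell by 0.27 on the log2 scale (SE 0.050, edgeR adjusted p = 1.97e-05), against −1.52 for Mcm4. Cdc45, also on chromosome 16 (18780447 to 18811987, minus strand), fell beside Ufd1, a gene of protein degradation, which rose from 48.8 ± 1.75 to 59.8 ± 0.842 CPM (SD, n = 4; 0.29). Cdc45 and Ufd1 share 209 exonic bases on opposite strands, through which reads could be exchanged. Orc4, Orc6, Mcm7 and Fen1 also share exonic bases with the neighbours paired with them here. Orc1 on chromosome 4 (108579423 to 108614833, plus strand) starts 87 bases from the splicing factor gene Prpf38a, which had −0.34. Rpa1 on chromosome 11 (75298166 to 75348324, minus strand) fell with Smyd4 109 bases away (−0.79), and the ratio of Rpa1 to it was lower in every ad-CRE library. For Rpa3, the ratio to Umad1 overlapped between the groups, and it was higher relative to its other neighbour, Gm45062, in every ad-CRE than in every ad-GFP library; Gm45062 had −1.38. The ratios of Orc3, Gins1 and Dbf4 to their neighbours overlapped between the groups too.

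**Figure D4:**
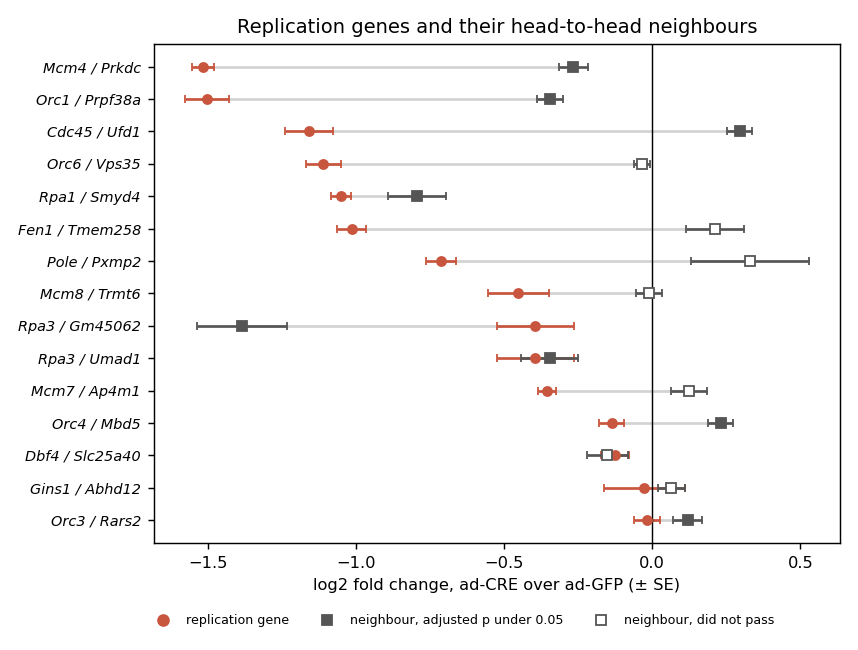
Log2 fold change, ad-CRE over ad-GFP, of 14 replication genes (circles) and their 15 head-to-head neighbours (squares, open where the edgeR test was not passed), with SE and a grey line joining each pair. Most neighbours lie near 0, right of their replication gene, and Gm45062 lies left of Rpa3.

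Whether reads were counted by strand is not stated, and overlapping genes could exchange reads. Of the 48 members, 12 share exonic bases with another gene of the table, and all 12 were lower (median −0.82), as were 32 of the other 36 (median −0.79). Gins2 shares the most, 2758 of its 4097 exonic bases with Gse1 on the opposite strand, which was at 48.2 ± 2.52 and 43.7 ± 1.13 CPM in ad-GFP and ad-CRE (SD, n = 4). Orc2 shares 1150 bases with Nif3l1, which rose by 0.42, and Rfc2 shares 952 bases with Lat2, which had −0.96. Fen1 shares 1909 bases with the antisense gene Gm10143, which was not analysed here. Pole2 shares 245 bases with Gm49384 on the same strand, which counting by strand would not separate. The values of Gins2, Orc2, Rfc2, Fen1 and Pole2 are uncertain to that extent.

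Further genes of replication were taken from a wider list. Of 25 other origin and fork factors, 16 were lower, 7 higher and 2 did not pass (median −0.42). For this list and those below, the shares over all genes tested were 36.3% lower and 36.8% higher. Wdhd1, which links the helicase to polymerase alpha, fell to 28.5% (−1.81, SE 0.055) and Ticrr, which encodes the origin firing factor treslin, to 39.7% (−1.33, SE 0.081). Ddb1, an adaptor of the CUL4 ubiquitin ligase that destroys CDT1 and the most abundant of the 25, rose by 0.12. All 7 genes of nucleosome assembly behind the fork were lower (median −0.79), led by the chromatin assembly factor genes Chaf1a (−1.28) and Chaf1b (−1.02), with −0.52 for the abundant histone chaperone gene Ssrp1. Of 10 S phase checkpoint genes, 6 were lower, 2 higher and 2 did not pass (median −0.26). The kinase gene Chek1 had −0.99, and Topbp1, which activates the kinase ATR and serves origin firing, had −0.75.

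Of the 11 genes listed for deoxynucleotide supply, 10 had lower RNA and 1 higher (median −1.19). The shares over all genes tested were 36.3% lower and 36.8% higher. Dut, which encodes the enzyme that removes dUTP and whose fall was not the largest of the list, fell from 38.1 ± 1.23 to 12.5 ± 1.40 CPM (SD, n = 4; −1.60). Rrm2, a subunit of ribonucleotide reductase, had −1.22. The gene that rose was Rrm2b, an alternative small subunit of that enzyme, by 0.57. Of 25 G1 to S regulators, 15 were lower, 7 higher and 3 did not pass (median −0.40). Those with the largest changes were the cyclin E gene Ccne2, from 69.8 ± 5.30 to 9.47 ± 0.735 CPM (SD, n = 4; −2.88), and E2f7, an E2F family repressor that fell from 49.5 ± 1.52 to 11.4 ± 0.865 CPM (SD, n = 4; −2.12). Cdkn1a, the CDK inhibitor p21 and the most abundant of this list, had −0.97. Of the 30 genes of the mitosis list 21 were lower, 2 higher and 7 did not pass (median −0.30). Its summed level was 1161 to 1200.0 CPM in ad-GFP and 932 to 970.0 CPM in ad-CRE, 80.5% of the ad-GFP mean. The same share was 48.6% for deoxynucleotide supply, 55.4% for the replication genes, 68.4% for nucleosome assembly and 76.5% for the S phase checkpoint. It was 95.9% for the G1 to S regulators and 99.0% for the further origin and fork factors. Such sums weigh abundant genes most. None of the 30 mitosis genes fell by 1 log2 unit, against 9.43% of genes tested. The largest fall of that list was that of Ndc80 (−0.77), a kinetochore gene. Kif23, a kinesin of cytokinesis, rose by 1.04. Cdk1, the mitotic kinase gene and the most abundant of the list, had −0.66. Differences between lists were not tested. These lists were written with earlier results of these data known and are described by counts alone.

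**Figure D5:**
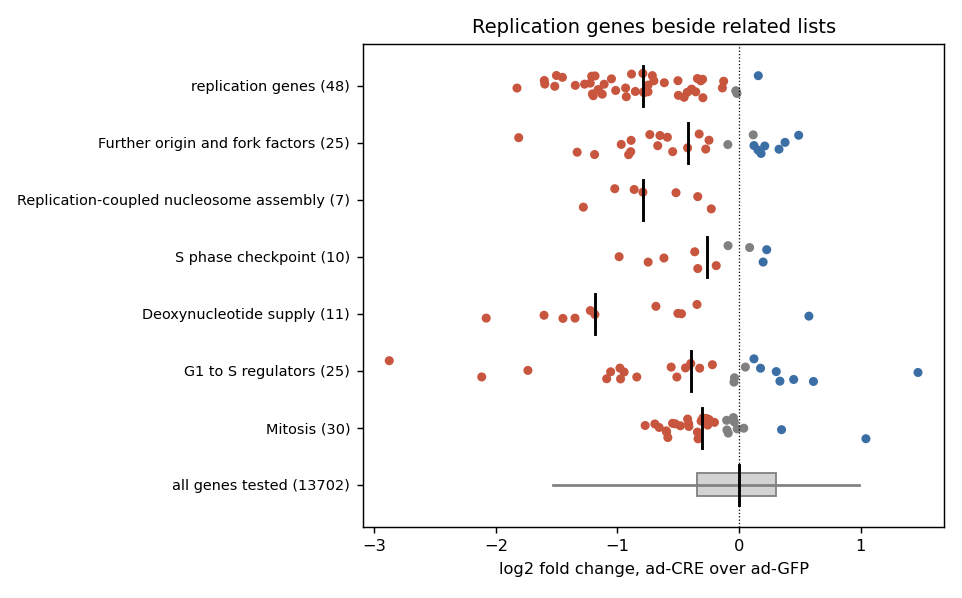
Log2 fold change, ad-CRE over ad-GFP, of each gene (points; red lower, blue higher, grey not passed in the edgeR test) in the replication list and 6 related lists, with vertical lines at list medians. For all genes tested the box spans percentiles 25 to 75 (−0.35 to 0.30) and the line percentiles 5 to 95 (−1.53 to 0.99); the replication median of −0.79 lies left of that box and the mitosis median of −0.30 inside it.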

How the data were processed

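Gene expression was measured by RNA-seq in 4 ad-GFP and 4 ad-CRE libraries. Total RNA was isolated on RNeasy columns and made into libraries by the SMARTer chemistry for mRNA, per the labels' protocols. GRCm38 and mm10 are named in the submitters' processing notes. No aligner, counter or annotation is named in the sources used here. Per the file headers, the deposited table holds a read count per gene and library and the authors' FPKM (counts per gene length and library size), with group means, the authors' log2 fold change and the authors' p-value and FDR, whose test is not given. By the authors' deposited FDR, 44 members are lower at a threshold of 0.05 and 4 are not past it.

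Counts were tested with edgeR 4.0.16 in R 4.3.3 (filterByExpr, TMM, quasi-likelihood test with the group alone), with Benjamini-Hochberg adjustment over 13702 genes and a threshold of 0.05. CPM are TMM-scaled counts, and the SE is the log2 fold change over the square root of F. DESeq2 1.42.0, limma 3.58.1, other scalings, filters, a stricter threshold, a replicate term and leaving out each library were alternatives. On simulated counts for this comparison (13666 genes) edgeR recovered 68% of genes changed by 0.25 log2 units and 100% of those changed by 0.5 or more, and 5.15% of its calls were false. In that simulation only a small share of genes was changed, all of them well counted, and every gene had the same spread between libraries. Most genes tested here were called, so these shares need not hold for the real counts or for genes with few reads. No pair of replicates agreed within sampling noise (chi-square divided by its degrees of freedom 1.71 to 3.24).

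The members and lists were chosen with earlier results of these data known. Per-library values are given for the member with the largest called change and the member with the highest mean FPKM in each role group, and for each member that rose or did not pass. In other lists the gene with the highest FPKM is named, with the 2 largest called changes among genes whose average log2 CPM reaches 2; 1 gene that this rule names is not reported here. Other genes were singled out after their values were seen, among them Smarca4 and the neighbouring genes. Gene coordinates come from GENCODE M21 and promoter windows from RefSeq, both GRCm38. Figures were drawn with matplotlib 3.10.9.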

Additional observations from a re-analysis of the deposited data

Results flagged for a closer look

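In 4 of 98 groups of 4 libraries (the 48 replication genes and Suv39h1, 2 groups each), 1 library lay far from the other 3 by Dixon's ratio, and chance flags about 1 in 20 such groups. All 4 were in ad-GFP. Orc3 was at 47.8 CPM in ad-GFP replicate 4, against 45.2 to 45.6 CPM in the others. Mcm3 was at 133 CPM in ad-GFP replicate 4, against 137 to 138 CPM. Pold3 was at 34.95 CPM in ad-GFP replicate 2, against 36.2 to 36.4 CPM. Rpa1 was at 143 CPM in ad-GFP replicate 3, against 136 to 137 CPM. Each of these gaps was smaller than the fall of Mcm3, Pold3 and Rpa1, and Orc3 did not pass in any fit.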

How the results depend on the processing

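The count of replication genes lower in ad-CRE stayed at 43 or 44 under every alternative run. The count of those higher, 1 in the main analysis (Orc5), was 0 with total counts only, the 5 CPM filter (which left Gins1 untested), DESeq2, both FPKM scales and a threshold of 0.01, and 0 to 1 when 1 library was left out. The cause was not tested. The median log2 fold change was −0.73 on the log2(FPKM + 1) scale, where the added 1 shrinks low genes, and −0.85 to −0.80 when 1 library was left out, the lowest without ad-CRE replicate 1. The calls of 45 members held under all alternatives in which they were tested, and those of Orc5, Orc4 and Dbf4 were lost in some, with no change of direction among called genes. With the replicate number as a block, 44 members were lower and 1 higher (median −0.79; 9963 genes called in all, against 10022). Same-numbered libraries had correlations of −0.07 to 0.07, and only replicate 4 correlated best with its own number. The counts therefore show no pairing by number, although libraries prepared in parallel with little shared signal would look the same. Which direction held more genes overall turned with the scaling, with 4975 lower and 5047 higher in the main fit and 5287 and 4734 by total counts only. For Gins1 and Rpa3, the few reads give SE of 0.138 and 0.129, so small differences were not detectable.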
